A study of Mus musculus with 12 samples.

Results

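Aminoacyl-tRNA synthetases are the enzymes that load each amino acid onto its tRNA. A list of 36 synthetase genes was matched by gene symbol in a table of 22899 genes measured by RNA sequencing, and all 36 were found. The list holds 20 enzymes of the cytosol and 16 of the mitochondrion, chosen by gene name and not by measured values. Of 10764 genes with enough expression to be tested, 35 were members. The 20 cytosolic enzymes were all tested, and of the 16 mitochondrial enzymes 15 were. The exception was Mars2, mitochondrial methionyl-tRNA synthetase, which lay between 0.35 and 0.76 FPKM in the 12 libraries.

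The libraries came from Kunming mice recorded as female and 6 to 8 weeks old, with 3 mice in each of 4 groups. The groups were colistin + 7-HC, colistin, 7-HC and control. Colistin, a polymyxin antibiotic known for kidney toxicity, was given at 15 mg/kg/day and 7-hydroxycoumarin (7-HC), a plant coumarin, at 50 mg/kg/day, both for 7 days. The labels name no engineered allele. The 7-HC was dissolved in DMSO and the control mice received saline, so the effects of 7-HC and of its vehicle cannot be told apart.

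The libraries are labelled kidney, but the defining genes of the nephron were at or near 0 in them. The 8 proximal tubule genes checked summed to between 0.06 and 0.24 FPKM per library over all groups, with Slc5a2 and Kap blank, and none of them passed the filter. Aqp2 of the collecting duct and Slc12a1 and Cldn16 of the loop of Henle were blank. All 10 liver genes checked were expressed instead, with a median of 3751 FPKM in control, and albumin alone took 2.95 to 13.6% of the summed values. Although every mouse is recorded as female, each library held more than 1 FPKM of Ddx3y, of Eif2s3y, of Kdm5d and of Uty, all Y-linked. Between 10036 and 10392 genes reached 1 FPKM in each library, and the mean correlation of a library with the others of its group ran from 0.962 in colistin replicate 2 to 0.983.

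In textbook terms, a synthetase activates its amino acid with ATP and passes it to the matching tRNA. The cytosol and the mitochondrion are served by separate enzymes that are nearly all encoded by separate nuclear genes, the mitochondrial ones usually ending in 2. Kars and Gars are exceptions, since each gene gives both forms. Eprs joins glutamyl- and prolyl-tRNA synthetase in 1 chain, and several cytosolic enzymes are held in a multisynthetase complex. Many cytosolic synthetase genes are known targets of ATF4, the transcription factor translated when amino acids run short or eIF2 is phosphorylated.

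The promoters of the synthetases were searched for the letters TGATGNAA, the core of the element that C/EBP and ATF4 dimers are known to bind, on both strands. RefSeq promoter windows of GRCm38.p6, running from 250 bases before to 50 bases after the start, were matched by gene identifier for 27 of the 36 members, 13 cytosolic and 14 mitochondrial. The letters were in 5 of 13 cytosolic windows (38.5%), in 0 of 15 windows of the mitochondrial enzymes, in 7 of 32 windows of a list of ATF4 and amino acid response genes (21.9%) and in 1304 of all 32851 windows (3.97%). Cars, Hars, Lars, Nars, Rars, Vars, Wars, Hars2 and Pars2 had no matched window. The 5 cytosolic windows, and that of Asns for comparison, are shown from 120 bases before the start to 30 from the start on, 5′ to 3′ on the strand of the gene, with matches in capitals. Yars (chr4:129189783-129189932, plus strand) and Asns (chr6:7693180-7693329, minus strand) hold the letters as written, and Gars (chr6:55037881-55038030, plus strand), Aars (chr8:111033722-111033871, plus strand), Iars (chr13:49682010-49682159, plus strand) and Tars (chr15:11399629-11399778, minus strand) hold their reverse complement.
Yars: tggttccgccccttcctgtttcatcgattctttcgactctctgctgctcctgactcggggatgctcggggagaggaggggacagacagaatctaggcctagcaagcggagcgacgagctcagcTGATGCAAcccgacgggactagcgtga
Gars: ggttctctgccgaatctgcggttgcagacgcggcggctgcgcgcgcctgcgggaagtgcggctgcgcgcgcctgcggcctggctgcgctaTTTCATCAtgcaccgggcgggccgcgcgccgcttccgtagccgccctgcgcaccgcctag
Iars: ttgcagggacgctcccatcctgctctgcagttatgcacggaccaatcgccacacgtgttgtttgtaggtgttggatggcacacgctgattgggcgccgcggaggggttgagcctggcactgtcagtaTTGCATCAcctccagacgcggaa
Aars: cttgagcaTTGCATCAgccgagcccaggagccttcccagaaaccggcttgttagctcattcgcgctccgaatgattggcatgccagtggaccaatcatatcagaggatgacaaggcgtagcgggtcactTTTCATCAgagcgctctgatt
Tars: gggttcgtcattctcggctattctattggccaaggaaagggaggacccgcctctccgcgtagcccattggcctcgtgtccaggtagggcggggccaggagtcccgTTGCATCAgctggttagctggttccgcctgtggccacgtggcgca
Asns: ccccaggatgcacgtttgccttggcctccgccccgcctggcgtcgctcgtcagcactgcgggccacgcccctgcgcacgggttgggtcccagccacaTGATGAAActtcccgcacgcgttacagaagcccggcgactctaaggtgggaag

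Aars holds 2 matches and the others 1 each. Counted from the start, the match of Yars covers bases 4 to 11, that of Iars bases 8 to 15, that of Gars bases -30 to -23, that of Tars bases -15 to -8 and that of Asns bases -23 to -16.

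The median level of the cytosolic enzymes was higher in every library with colistin than in any without it. That of the mitochondrial enzymes was lower in both groups with colistin than in control, but overlapped slightly with 7-HC. The median of the 20 cytosolic enzymes was 19.4 to 20.1 FPKM per library in colistin + 7-HC, 17.3 to 20.4 in colistin, 11.2 to 12.9 in 7-HC and 13.5 to 14.9 in control. The 6 libraries with colistin thus all lay above the 6 without it, a difference described here and not tested. The median of the 16 mitochondrial enzymes was 4.09 to 4.47 FPKM in colistin + 7-HC, 3.86 to 4.50 in colistin, 4.45 to 4.90 in 7-HC and 4.63 to 5.22 in control. Both groups with colistin thus lay below control and overlapped only with 7-HC, by a small margin. The summed level of the 16 mitochondrial enzymes was 74.8 to 82.7 FPKM in colistin + 7-HC and 70.9 to 85.7 in colistin. It was 89.6 to 94.6 in 7-HC and 98.4 to 99.2 in control, so these sums did not overlap between libraries with and without colistin. A sum follows the most expressed enzymes, such as Iars2 and Fars2. The distance between both medians on the log2 scale was 2.04 to 2.13 in colistin + 7-HC and 1.83 to 2.13 in colistin, against 1.14 to 1.43 in 7-HC and 1.35 to 1.59 in control. FPKM is scaled by gene length, so these levels can be set side by side between genes. In bulk tissue, fewer cells of a type and less RNA per cell cannot be told apart.

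**Figure D1:**
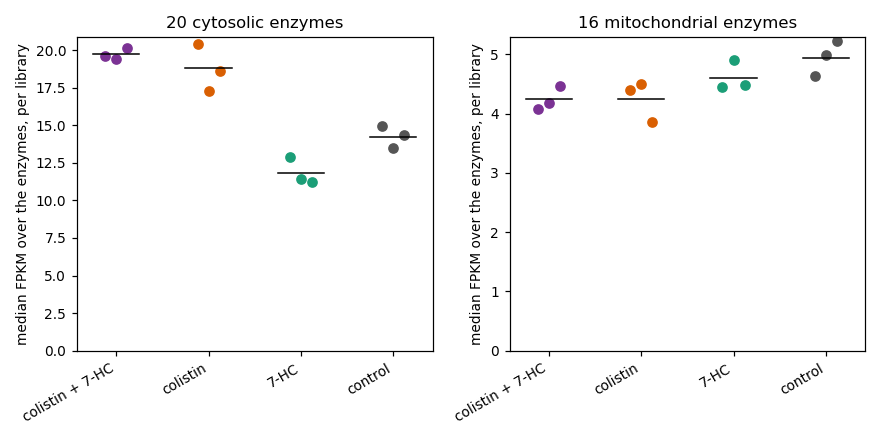
Median FPKM of the 20 cytosolic enzymes (left) and of the 16 mitochondrial enzymes (right) in each of the 12 libraries, on linear axes from 0. Each point is 1 library and each bar the mean of 3 libraries. The cytosolic medians lay at 17.3 FPKM or more in every library with colistin and at 14.9 or less in every library without it.

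The first comparison asked how colistin alone differed from control. Among the cytosolic enzymes, 8 of 20 rose, none fell, and the median log2 fold change of the class was 0.31. Over all tested genes, 12.7% rose, 19.9% fell and the median log2 fold change was -0.07. Among the mitochondrial enzymes, 1 of 15 rose, 7 fell and the median was -0.21. A gene was said to rise or fall at a Benjamini-Hochberg adjusted p under 0.05 over all tested genes in limma, fitted to log2(FPKM + 0.5). Fold changes are on that scale, which understates those of weakly expressed genes such as most of the mitochondrial enzymes. In 10 cytosolic enzymes every colistin library lay above every control library, as in 18.8% of all genes, and in 7 mitochondrial enzymes below, as in 28.1%. The p-values measure the spread between these libraries.

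Nars, cytosolic asparaginyl-tRNA synthetase, changed most among the cytosolic enzymes. Nars had 53.7, 52.2 and 54.2 FPKM in colistin + 7-HC, 84.4, 42.2 and 59.7 in colistin, 18.7, 20.1 and 19.6 in 7-HC and 30.7, 26.9 and 24.1 in control. Every library with colistin exceeded every library without it, and the colistin group was the most uneven. Against control, the log2 fold change of Nars in colistin was 1.12 (SE 0.20, adjusted p in limma 0.00143). Wars, the tryptophanyl enzyme, is also known as a target of interferon gamma. Wars had 7.78, 11.1 and 8.34 FPKM in colistin + 7-HC, 14.2, 7.26 and 11 in colistin, 5.30, 6.09 and 4.88 in 7-HC and 6.33, 4.74 and 6.79 in control, and colistin stood 0.78 above control on the log2 scale (SE 0.22, adjusted p 0.0198). Its colistin values differed from each other by more than those of any other group, and none overlapped control. Lars, the leucyl enzyme of the multisynthetase complex, had 11.1, 11.8 and 11.8 FPKM in colistin + 7-HC, 15.5, 8.52 and 12.7 in colistin, 3.81, 4.59 and 4.74 in 7-HC and 7.00, 6.15 and 7.76 in control. The 4 groups of Lars fell into a pair of high groups with colistin and a pair of low ones without it, and its log2 fold change in colistin against control was 0.74 (SE 0.18, adjusted p 0.00918).

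Sars, Gars and Yars, which charge serine, glycine and tyrosine, rose by smaller amounts. Sars had 23.7, 22.5 and 26.4 FPKM in colistin + 7-HC, 21.3, 19.9 and 22.6 in colistin, 12.1, 10.9 and 9.93 in 7-HC and 14.2, 11.8 and 14.1 in control. Its replicates lay close together, and against control its log2 fold change in colistin was 0.65 (SE 0.12, adjusted p 0.00157). Gars had 24.1, 29.4 and 36.8 FPKM in colistin + 7-HC, 27.5, 26.0 and 29.0 in colistin, 17.0, 16.6 and 17.1 in 7-HC and 20.4, 17.3 and 19.1 in control. The colistin libraries did not overlap control in Gars, whose log2 fold change was 0.53 (SE 0.14, adjusted p 0.0133). Yars had 14.6, 13.3 and 14.5 FPKM in colistin + 7-HC, 14.0, 9.83 and 14.9 in colistin, 6.36, 5.81 and 6.03 in 7-HC and 9.98, 9.30 and 7.82 in control. Here colistin replicate 2 fell inside the control range, and the log2 fold change was 0.48 (SE 0.15, adjusted p 0.0283). The methionyl enzyme Mars, at 0.35 on the log2 scale (adjusted p 0.0384), and the glutaminyl enzyme Qars, at 0.32 (adjusted p 0.0478), passed narrowly.

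Not all of these 8 calls were equally firm. Nars, Lars and Sars passed in all 20 alternative settings, including the omission of each library. Gars missed the threshold in 1 setting, without control replicate 2 (adjusted p 0.054, against 0.00551 at the lowest). Wars missed it without colistin replicate 1, colistin replicate 3 or control replicate 2, and Yars without any of these libraries or control replicate 3, with adjusted p up to 0.0817 for Wars and 0.109 for Yars. Both also missed it when only colistin and control were fitted, at adjusted p of 0.0618 for Wars and 0.0935 for Yars. Mars was lost in 8 settings and Qars in 13, with adjusted p up to 0.137 and 0.148. In the annotation the whole gene span of Mars shares 71 bases with that of the stress gene Ddit3, and that of Wars 24 bases with that of Wdr25. Any reads there cannot be assigned without a known strand.

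The other 12 cytosolic enzymes did not pass in this comparison. Their log2 fold changes ran from -0.10 for the aspartyl enzyme Dars to 0.35 for the cysteinyl enzyme Cars (adjusted p 0.233). The bifunctional Eprs came closest, with 25.2, 27.97 and 32.9 FPKM in colistin + 7-HC, 32.5, 29.5 and 33.0 in colistin, 24.7, 21.8 and 23.2 in 7-HC and 26.2, 25.2 and 25.4 in control. Its colistin libraries lay above all control libraries, yet the log2 fold change of 0.30 had an adjusted p of 0.0614. Over the alternative settings its adjusted p ran between 0.0246 and 0.155, and it passed with median-ratio scaling, without colistin + 7-HC replicate 3 and without colistin replicate 2. Aars, the alanyl enzyme, was at 62.0, 44.9 and 62.2 FPKM in colistin against 58.0, 56.5 and 54.2 in control, and its log2 fold change of -0.01 turned to 0.07 with median-ratio scaling. In the annotation the whole gene spans of Aars and Ddx19b share 3974 bases. Exons were not compared, so whether reads are shared is not known. Between subsets, 3 of 8 members of the multisynthetase complex rose and 5 of 12 enzymes outside it. By the structural classes of synthetases, 5 of 9 class I and 3 of 10 class II cytosolic enzymes rose, with the bifunctional Eprs counted in neither. No difference between these subsets was tested.

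Most of the mitochondrial enzymes that passed fell. Fars2, mitochondrial phenylalanyl-tRNA synthetase (chr13:36117428-36537595, GRCm38.p6), had 9.32, 11.2 and 11.2 FPKM in colistin + 7-HC, 8.41, 10.6 and 7.93 in colistin, 20.5, 19.1 and 17.9 in 7-HC and 17.0, 19.8 and 17.1 in control. No library with colistin came near one without it, and the log2 fold change in colistin against control was -0.97 (SE 0.13, adjusted p in limma 0.000251). Aars2, for alanine, had 2.69, 2.99 and 3.06 FPKM in colistin + 7-HC, 2.17, 2.18 and 3.02 in colistin, 4.35, 4.89 and 4.69 in 7-HC and 4.29, 6.01 and 3.94 in control. The libraries with and without colistin were again apart, with colistin at a log2 fold change of -0.82 against control (SE 0.16, adjusted p 0.00234). Yars2, for tyrosine, had 4.59, 4.23 and 4.43 FPKM in colistin + 7-HC, 5.34, 4.81 and 4.19 in colistin, 6.00, 6.46 and 5.86 in 7-HC and 7.19, 6.59 and 6.59 in control. It showed the same separation at a smaller log2 fold change, -0.47 (SE 0.10, adjusted p 0.00511).

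Sars2 and Nars2, for serine and asparagine, fell in colistin against control but were placed differently in 7-HC. Sars2 had 4.13, 4.51 and 4.68 FPKM in colistin + 7-HC, 3.42, 4.26 and 4.0 in colistin, 4.51, 4.91 and 4.45 in 7-HC and 5.77, 6.95 and 7.40 in control. The 3 treated groups of Sars2 all lay below control, and the log2 fold change in colistin was -0.71 (SE 0.12, adjusted p 0.000937). Nars2 had 4.04, 4.12 and 5.13 FPKM in colistin + 7-HC, 3.93, 4.94 and 3.15 in colistin, 5.37, 5.41 and 6.11 in 7-HC and 6.57, 5.65 and 6.62 in control, with a log2 fold change of -0.61 in colistin (SE 0.15, adjusted p 0.00944). Its 7-HC libraries lay above both colistin groups and overlapped control. The histidyl Hars2 had 4.56, 5.75 and 4.98 FPKM in colistin + 7-HC, 4.86, 4.58 and 3.50 in colistin, 6.32, 7.93 and 7.41 in 7-HC and 6.32, 5.68 and 6.01 in control. In the annotation Hars2 shares only 4 bases with Hars. The log2 fold change of -0.44 (adjusted p 0.0267) missed the threshold without colistin replicate 3, control replicate 1 or control replicate 3, and when only colistin and control were fitted. Lars2, for leucine, had 2.09, 2.01 and 2.19 FPKM in colistin + 7-HC, 2.73, 2.47 and 2.19 in colistin, 2.36, 3.35 and 2.48 in 7-HC and 3.42, 3.61 and 3.12 in control. Its log2 fold change of -0.39 (adjusted p 0.0394) was lost in 12 of 20 settings, with adjusted p up to 0.129. Fars2, Aars2, Sars2, Nars2 and Yars2 passed in all 20.

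Ears2, mitochondrial glutamyl-tRNA synthetase, was the 1 mitochondrial enzyme that rose. It had 2.67, 3.55 and 3.45 FPKM in colistin + 7-HC, 6.51, 5.01 and 4.65 in colistin, 2.94, 2.90 and 2.87 in 7-HC and 3.41, 2.52 and 3.23 in control. Only the colistin group without 7-HC stood above the others, and its log2 fold change against control was 0.725 (SE 0.15, adjusted p in limma 0.00357), passing in all 20 settings. Wars2, for tryptophan, had 2.01, 1.74 and 1.74 FPKM in colistin + 7-HC, 1.69, 1.57 and 1.64 in colistin, 1.32, 1.89 and 1.76 in 7-HC and 1.28, 1.19 and 1.24 in control. All 9 libraries of treated mice were above the 3 control libraries, but the adjusted p of colistin against control was 0.0941 at a log2 fold change of 0.30 (0.0442 to 0.204 over the alternatives, passing only without 7-HC replicate 1). Of the other mitochondrial enzymes tested, the prolyl Pars2 (0.42), the cysteinyl Cars2 (0.27) and the arginyl Rars2 (0.05) had positive log2 fold changes, and the valyl Vars2 (-0.12), the threonyl Tars2 (-0.19) and the isoleucyl Iars2 (-0.21) negative ones, with adjusted p from 0.202 to 0.845.

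**Figure D2:**
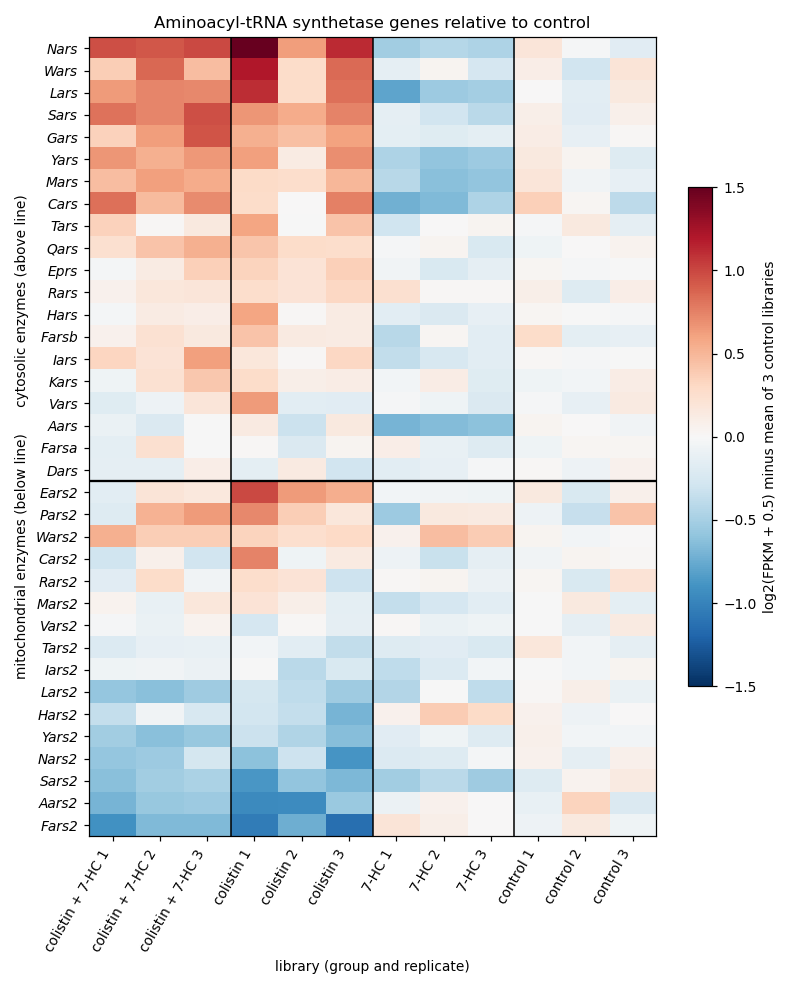
Each row is a synthetase gene and each column a library, coloured by log2(FPKM + 0.5) minus the mean of the 3 control libraries (red higher, blue lower). Cytosolic enzymes stand above the line and mitochondrial ones below it, each ordered by the log2 fold change in colistin against control, with Mars2 placed by its values although it was not tested. Nars is the reddest row in both colistin groups (log2 fold changes of 1.12 and 0.96 against control) and Fars2 the bluest (-0.97 and -0.74).

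The colistin effect could be read again in mice that all received 7-HC, by setting colistin + 7-HC against 7-HC. No library is used in both comparisons, although both share 1 estimate of the spread. Here 11 of 20 cytosolic enzymes rose and none fell, with a median log2 fold change of 0.51, while 14.5% of all tested genes rose, 16.6% fell and their median was -0.01. Among mitochondrial enzymes 0 of 15 rose and 4 fell, with a median of 0.01. The 3 libraries of colistin + 7-HC lay above all 3 of 7-HC in 14 cytosolic enzymes (22.1% of all genes) and below them in 6 mitochondrial ones (24.4% of all genes). All 8 cytosolic enzymes that rose in colistin against control rose here as well, and 4 of the 8 mitochondrial enzymes called there were called here in the same direction. How many of all tested genes were called in both comparisons was not counted, so this overlap is not shown to be particular to the synthetases.

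Nars (log2 fold change 1.43, SE 0.20, adjusted p 0.000369) and Lars (1.31, SE 0.18, adjusted p 0.000361) led again. Yars reached 1.15 (adjusted p 0.000235), Sars 1.11 (adjusted p 6.67e-05), Mars 1.09 (adjusted p 7.9e-05), Gars 0.79 (adjusted p 0.00161), Wars 0.68 (adjusted p 0.0367) and Qars 0.47 (adjusted p 0.00899). The values of Mars were 22.1, 24.7 and 23.6 FPKM in colistin + 7-HC, 19.5, 19.2 and 22.7 in colistin, 11.8, 10.1 and 10.4 in 7-HC and 18.0, 15.3 and 14.6 in control. Mars was lowest in 7-HC, without overlap with control, which widened its distance to the group given both compounds. Qars had 21.1, 24.1 and 25.9 FPKM in colistin + 7-HC, 24.0, 21.6 and 21.4 in colistin, 17.6, 18.3 and 15.1 in 7-HC and 17.0, 17.9 and 18.5 in control. In Qars the 6 libraries without colistin were much alike. Wars missed the threshold in 7 settings, among them without colistin + 7-HC replicate 2 or 3 or without any 1 of the 7-HC libraries, with adjusted p up to 0.138.

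Cars, Iars and Aars rose in colistin + 7-HC against 7-HC and had not passed in colistin against control. Cars had 18.2, 14.1 and 16.7 FPKM in colistin + 7-HC, 12.3, 10.1 and 17.4 in colistin, 5.87, 6.15 and 7.14 in 7-HC and 13.0, 10.3 and 7.56 in control. Its control and colistin libraries overlapped widely, while the log2 fold change in colistin + 7-HC against 7-HC was 1.29 (SE 0.21, adjusted p in limma 0.00117). Iars, the isoleucyl enzyme, had 11.7, 10.7 and 14.3 FPKM in colistin + 7-HC, 10.5, 9.37 and 11.6 in colistin, 7.04, 7.73 and 8.18 in 7-HC and 9.36, 9.12 and 9.16 in control, a log2 fold change of 0.64 here (adjusted p 0.00274). Its 3 control libraries were nearly equal and lay between 7-HC and colistin. Aars had 52.5, 48.3 and 55.9 FPKM in colistin + 7-HC and 34.6, 35.6 and 36.4 in 7-HC, which gave 0.55 on the log2 scale (adjusted p 0.00872). The control libraries of Aars, at 54.2 to 58.0 FPKM, were near the libraries with both compounds, and those of 7-HC were low. Whether these fold changes differ from those in colistin against control is a separate question, tested as an interaction.

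Of the mitochondrial enzymes, Fars2 (log2 fold change -0.84, SE 0.13, adjusted p 0.000739), Aars2 (-0.59, adjusted p 0.0145), Hars2 (-0.46, adjusted p 0.0232) and Yars2 (-0.43, adjusted p 0.0095) fell in colistin + 7-HC against 7-HC. Fars2 and Yars2 passed in all 20 alternative settings, Aars2 missed without colistin + 7-HC replicate 1 (adjusted p 0.0523), and Hars2 missed in 4, without colistin + 7-HC replicate 1 or 3 or 7-HC replicate 2 or 3. The other 3 that fell in colistin against control did not pass here. Their log2 fold changes were -0.32 for Nars2 (adjusted p 0.126), -0.30 for Lars2 (adjusted p 0.102) and -0.05 for Sars2 (95% interval -0.31 to 0.20). Ears2, which had risen in colistin against control, had a log2 fold change of 0.12 (95% interval -0.21 to 0.45).

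**Figure D3:**
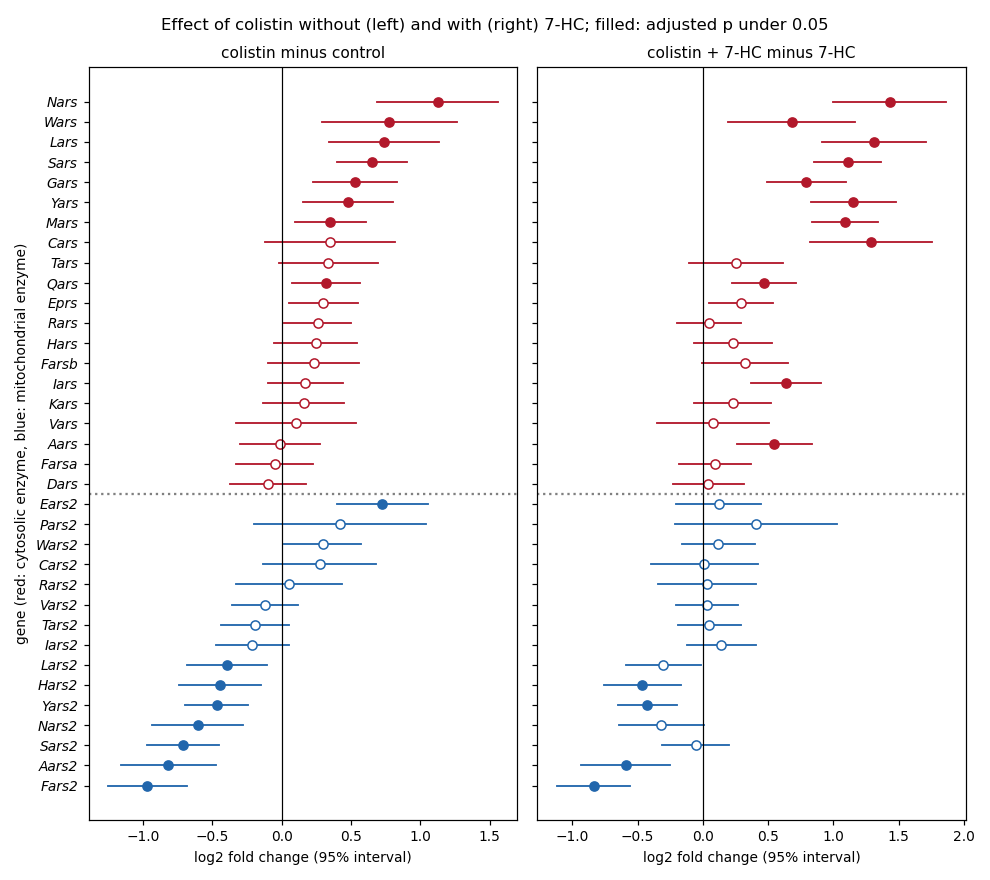
Log2 fold changes of the 35 tested synthetases with 95% intervals, in colistin minus control (left) and in colistin + 7-HC minus 7-HC (right). Filled points have an adjusted p under 0.05, red points are cytosolic and blue points mitochondrial enzymes. The cytosolic points run from -0.10 to 1.12 on the left and from 0.04 to 1.43 on the right, and the mitochondrial ones from -0.97 to 0.73 and from -0.84 to 0.41.

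Each of the 15 tested mitochondrial enzymes has a cytosolic enzyme for the same amino acid, which gives 16 pairs, with Fars2 set against both subunits of the cytosolic enzyme, Farsa and Farsb. In colistin against control, the cytosolic log2 fold change was the larger of the pair in 14 of 16 pairs, with a median difference of 0.61. With 7-HC in both groups it was larger in 15 of 16, with a median difference of 0.81. Eprs appears in 2 pairs and Fars2 in 2, so the pairs are not independent. The widest pair in the first comparison was Nars with Nars2. The log2 ratio of Nars to Nars2 was 3.46 ± 0.16 in colistin + 7-HC, 3.76 ± 0.69 in colistin, 1.70 ± 0.10 in 7-HC and 2.03 ± 0.21 in control (SD, n = 3). For Sars and Sars2 it was 2.32 ± 0.11 in colistin + 7-HC, 2.31 ± 0.19 in colistin, 1.16 ± 0.15 in 7-HC and 0.95 ± 0.26 in control. For Yars and Yars2 it was 1.57 ± 0.03 in colistin + 7-HC, 1.33 ± 0.38 in colistin, -0.01 ± 0.12 in 7-HC and 0.38 ± 0.13 in control. In these 3 pairs the ratio was higher in every library with colistin than in any without it. The pair of Eprs and Ears2 went the opposite way in colistin alone, at 2.97 ± 0.14 in colistin + 7-HC, 2.46 ± 0.23 in colistin, 2.80 ± 0.08 in 7-HC and 2.89 ± 0.18 in control.

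**Figure D4:**
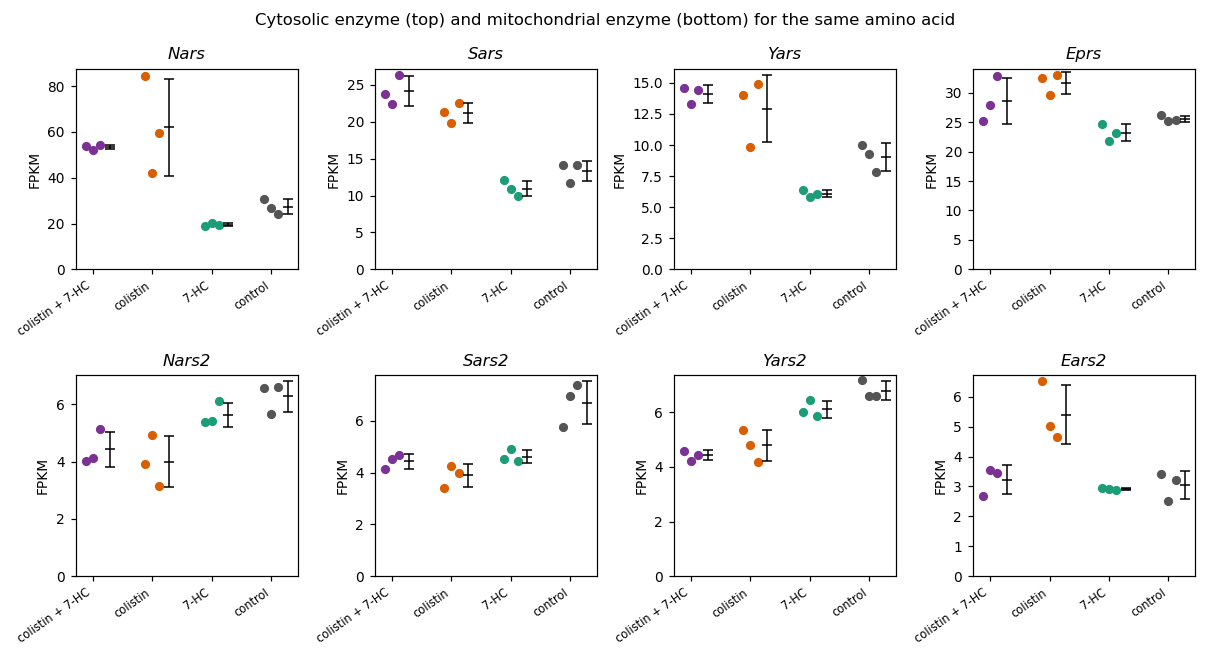
FPKM of 4 cytosolic enzymes (top) and of the mitochondrial enzyme for the same amino acid (bottom) in each library, with the mean and SD of 3 libraries beside the points, on linear axes from 0. Nars, Sars and Yars were higher and Nars2, Sars2 and Yars2 lower in colistin than in control, while Ears2 stood at 4.65 to 6.51 FPKM in colistin and at 3.55 or less in every other library.

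No synthetase passed the test when 7-HC was added to colistin. For colistin + 7-HC against colistin, limma called 0 of 35 members and 1 of all tested genes, or 0.00929%. At an unadjusted p under 0.05 there were 2 members, while 12.4% of all genes met that level. The median log2 fold change was 0.00 for cytosolic, 0.10 for mitochondrial and 0.02 for all tested genes. The 2 members were Ears2, at a log2 fold change of -0.66 (95% interval -0.98 to -0.33, p 0.000969, adjusted p in limma 0.148), and Cars2, at -0.44 (adjusted p 0.371). Cars2 had 3.33, 4.45 and 3.36 FPKM in colistin + 7-HC against 7.40, 4.01 and 4.64 in colistin, where a single library was high, and 3.97, 3.23 and 3.78 in 7-HC and 4.04, 4.32 and 4.24 in control. Without colistin replicate 2, the library least like its group, Ears2 passed at -0.70 on the log2 scale (adjusted p 0.0471, against up to 0.435 in other settings). The intervals of the most responsive enzymes were wide enough to hold sizeable differences in either direction, such as -0.59 to 0.27 for Nars and -0.44 to 0.36 for Lars.

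With 7-HC alone the cytosolic enzymes were mostly lower than in control, but none passed the adjusted test. In 7-HC against control, limma called 0 of 35 members and 0.167% of all tested genes. At an unadjusted p under 0.05 there were 7 cytosolic and 2 mitochondrial enzymes, against 9.59% of all genes. The log2 fold change was negative for 19 of 20 cytosolic and 12 of 15 mitochondrial enzymes, with medians of -0.16 and -0.08 beside -0.04 for all tested genes. In 10 cytosolic and 5 mitochondrial enzymes every 7-HC library lay below every control library, as in 10.1% of all genes. The lowest p belonged to Aars, whose libraries at 34.6 to 36.4 FPKM in 7-HC and 54.2 to 58.0 in control gave a log2 fold change of -0.66 (95% interval -0.94 to -0.37, p 0.000345, adjusted p 0.116). Without colistin replicate 2, which is in neither group but adds to the shared spread, Aars passed. Next were Mars (-0.55, adjusted p 0.141) and Sars2 (-0.49, adjusted p 0.18), then Yars (-0.53), Lars (-0.61), Cars (-0.62), Nars (-0.47) and Sars (-0.27), each with an adjusted p of 0.234 or more. Wars2 was the 1 member of these 9 with a positive log2 fold change, 0.30 (adjusted p 0.479).

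The group given both compounds was also set against control. These are the same control libraries as in the first comparison, so its counts are not a further test. In colistin + 7-HC against control 9 of 20 cytosolic enzymes rose and none fell, and of 15 mitochondrial enzymes 1 rose and 6 fell, beside 10.6% of all tested genes that rose and 15.6% that fell. The largest rises were those of Nars (0.96, adjusted p 0.00483), Sars (0.84, adjusted p 0.000509) and Lars (0.70, adjusted p 0.0156), and the largest falls those of Fars2 (-0.74, adjusted p 0.0019), Aars2 (-0.60, adjusted p 0.016) and Lars2 (-0.58, adjusted p 0.00823). Wars2 passed here at a log2 fold change of 0.42 (adjusted p 0.0301). Without control replicate 2 the members called numbered 9, among them 5 cytosolic rises and 4 mitochondrial falls.

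Whether the colistin effect itself differed with and without 7-HC was tested as an interaction, and no synthetase passed. The interaction was called for 0.297% of all tested genes, and the lowest adjusted p of a member was 0.104, for Mars, whose colistin effect was larger with 7-HC by 0.74 on the log2 scale (95% interval 0.38 to 1.10). At an unadjusted p under 0.05 there were 7 cytosolic and 2 mitochondrial enzymes, beside 11.5% of all genes. The estimates were 0.94 for Cars (adjusted p 0.252), 0.67 for Yars (adjusted p 0.243), 0.66 for Sars2 (adjusted p 0.15), 0.57 for Lars (adjusted p 0.421), 0.56 for Aars (adjusted p 0.261), 0.47 for Iars (adjusted p 0.325), 0.46 for Sars (adjusted p 0.31) and -0.60 for Ears2 (adjusted p 0.292). Thus the enzymes that passed in 1 of the 2 colistin comparisons are not shown to respond differently in them.

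Genes that work beside the synthetases were counted in the same way. The scaffold proteins of the multisynthetase complex, Aimp1, Aimp2 and Eef1e1, gave 0 calls of 3 in colistin against control, with a median log2 fold change of -0.14. Of 12 other genes of tRNA charging, none rose and 3 fell, beside 12.7% and 19.9% of all tested genes, so the share that fell was near that of all genes. They were Tarsl2, a second cytosolic threonyl enzyme (-1.10), Gatb, a subunit of the mitochondrial glutamyl-tRNA amidotransferase (-0.57), and Aarsd1, an alanyl-tRNA editing protein (-0.43). In colistin + 7-HC against 7-HC, 1 of the 3 scaffold genes rose, Eef1e1, and among the charging genes 1 rose, Prorsd1, and 1 fell, Gatb (-0.66, adjusted p 0.0149), or 8.33% in each direction beside 14.5% and 16.6% of all genes.

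The factors that use charged tRNA were also listed. Of 10 mitochondrial translation factors, 1 rose in colistin against control, the ribosome recycling factor Mrrf (0.41, adjusted p 0.0341), and 1 fell, the elongation factor Tufm (-0.40, adjusted p 0.026), which is also near the 12.7% and 19.9% of all tested genes. With 7-HC in both groups none of the 10 rose and 2 fell, beside 16.6% of all genes that fell, Tufm (-0.59, adjusted p 0.00397) and the initiation factor Mtif3 (-0.54, adjusted p 0.00364). Tufm had 37.1, 41.4 and 41.4 FPKM in colistin + 7-HC, 49.9, 44.3 and 46.9 in colistin, 53.5, 61.9 and 65.8 in 7-HC and 56.8, 70.4 and 59.6 in control. As with Fars2, the libraries with and without colistin did not overlap in Tufm. Of 7 cytosolic elongation factors 1 rose in colistin against control, Eef1g (0.44, adjusted p 0.0294), and none fell. That is 14.3%, near the 12.7% of all tested genes. With 7-HC in both groups Eef1g (0.59, adjusted p 0.00844) and Eef1b2 (0.48, adjusted p 0.0472) rose and none fell. These are 28.6% of the 7, beside 14.5% of all tested genes, a difference that rests on few genes and was not tested.

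Genes of the ATF4 and amino acid response were given beside the synthetases because many cytosolic synthetases are known ATF4 targets. Of 31 listed genes 28 were tested, and in colistin against control 14 rose (50.0%) and 3 fell (10.7%), with a median log2 fold change of 0.68, beside 12.7%, 19.9% and -0.07 over all tested genes. Atf4 itself had 80.6, 78.7 and 92.4 FPKM in colistin + 7-HC, 109, 90.04 and 94.99 in colistin, 58.3, 38.0 and 39.6 in 7-HC and 52.2, 54.6 and 54.6 in control, so that colistin stood at a log2 fold change of 0.86 from control (adjusted p in limma 0.0019). Like the leading synthetases, Atf4 was higher in every library with colistin than in any without. Asns, asparagine synthetase, which makes the amino acid that Nars charges, had 32.0, 44.1 and 44.3 FPKM in colistin + 7-HC, 38.8, 23.4 and 34.2 in colistin, 0.27, 0.20 and 0.15 in 7-HC and 1.78, 2.48 and 0.20 in control. Its log2 fold change of 4.25 (adjusted p 3.85e-05) was the largest of the list, followed by Psat1 of serine synthesis (3.56), Nupr1 (3.20) and Mthfd2 of mitochondrial folate metabolism (2.75). Of the 14 genes that rose, 4 were below 1 FPKM in every library without colistin, so they were tested only because of the colistin groups. The same holds for Asns, Psat1 and Nupr1, which reached 1 FPKM in fewer than 3 libraries without colistin. The filter thus favoured the genes with the largest rises, and the shares that rose in both colistin comparisons include them. The genes that fell were Cth, which makes cysteine (-1.23), the eIF2 kinase Eif2ak1 (-0.70) and the serine hydroxymethyltransferase Shmt2 (-0.54). The ATF4 targets Trib3 (-0.15), Chac1 (0.74) and Ddit3 (0.78, adjusted p 0.0674), named here after their values were seen, did not pass. In colistin + 7-HC against 7-HC 15 rose (53.6%) and 3 fell (10.7%), beside 14.5% and 16.6% of all tested genes. Chac1 rose there (2.07, adjusted p 0.0193), and Trib3 (0.68, adjusted p 0.28) and Ddit3 (-0.26, adjusted p 0.542) did not pass. None of the list was called in colistin + 7-HC against colistin. Of 15 interferon gamma response genes, set beside Wars, 13 were tested, and in colistin against control Cxcl10 (4.12) and Irf1 (0.81) rose, which is 15.4% beside 12.7% of all genes. In colistin + 7-HC against 7-HC 8 of the 13 rose (61.5%, beside 14.5% of all genes) and none fell. The 7-HC libraries were low for this list. In 7-HC against control the log2 fold change was negative for all 13 (median -0.73), though 0 were called. Against control, 3 of the 13 rose in colistin + 7-HC (23.1%, beside 10.6% of all genes).

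The promoter matches can be set beside the calls. Of the 5 cytosolic genes with the letters TGATGNAA, Gars and Yars rose in both colistin comparisons, Iars and Aars in colistin + 7-HC against 7-HC, and Tars in neither. Tars, the threonyl enzyme, had 29.3, 23.4 and 25.6 FPKM in colistin + 7-HC, 34.97, 23.0 and 31.1 in colistin, 18.6, 23.2 and 23.7 in 7-HC and 22.8, 25.6 and 21.0 in control, and colistin differed from control by a log2 fold change of 0.34 (adjusted p 0.138). Sars, Mars and Qars rose in both comparisons with no match in their windows. A match is a description of these letters, and binding was not measured.

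Of the markers of other cells checked, the summed level of the neutrophil genes was higher in every library with colistin than in any without it. That sum was carried mostly by S100a8 and S100a9, with means of 13.7 and 18.6 FPKM in colistin and 0.35 and 0.957 in control. In colistin against control Ly6g (log2 fold change -0.22, adjusted p in limma 0.353) and Cxcr2 (0.15, adjusted p 0.511) did not pass. Mpo, Ngp and Camp did not pass the filter. The 8 neutrophil markers summed to 19.8 to 34.2 FPKM per library in colistin + 7-HC and 29.6 to 53.5 in colistin, against 7.22 to 9.57 in 7-HC and 7.42 to 9.93 in control, and of the 5 that passed the filter 3 rose in colistin against control, of which Retnlg and S100a8 were below 1 FPKM in every library without colistin. The 7 macrophage markers summed to 110 to 142 FPKM in colistin + 7-HC, 98.6 to 221 in colistin, 80.7 to 93.8 in 7-HC and 131 to 184 in control, and the 5 endothelial markers to 24.0 to 28.9, 25.2 to 37.7, 32.0 to 36.8 and 25.8 to 32.6 in the same groups. These sums overlapped between colistin and control. In colistin against control 1 of the 7 macrophage markers rose, Marco (log2 fold change 3.10), and 1 fell, Clec4f (-1.73). Of the 5 endothelial markers 1 rose and none fell. Over all tested genes 12.7% rose and 19.9% fell in this comparison. The macrophage shares, 14.3% in each direction, were thus near those of all genes. Retnlg and S100a8 were tested only because of the colistin groups. The filter thus favoured the neutrophil rises, and their share cannot be compared fairly with that of all genes. The neutrophil and endothelial counts rest on few genes, and no difference from all genes was tested. The summed level of the 10 liver genes was 67250 to 71210 FPKM in colistin + 7-HC, 65490 to 68610 in colistin, 92170 to 97530 in 7-HC and 79880 to 91340 in control, and in colistin against control 7 of the 10 fell (70.0%, beside 19.9% of all tested genes) and 2 rose, Hpx (3.34) and Fgb (2.07). Markers of B and plasma cells summed to 2.59 FPKM or less and those of T cells to 1.01 or less in every library, and none of them passed the filter. The part of these shifts in the synthetase values was not tested.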

How the data were processed

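RNA from 12 libraries labelled kidney was sequenced on a BGISEQ-500. The authors filtered reads with SOAPnuke and, per the labels, used HISAT2 2.0.4 and Bowtie2 2.2.5 with GRCm38.p6, RSEM 1.2.12 and DESeq2 1.4.5. The deposited table gives 1 value per gene and library with no unit named. The values are not whole and their sums differ, from 517984 to 597354, so they were taken as FPKM computed by the authors with RSEM. Counts, depth and strand are not given in the sources used here, so no counting interval was computed, and a count model planned for count tables did not apply. Of 22899 genes, 5161 are blank in every library.

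The 10764 genes that reached 1 FPKM in 3 or more libraries were fitted on the log2(FPKM + 0.5) scale by limma 3.58.1 (mean-variance trend, R 4.3.3), with all 12 libraries in 1 fit and Benjamini-Hochberg adjustment over all tested genes. The fit was tested on simulated data. Class medians are descriptions without a test. Per-library values are given for up to 6 called members of each class and direction with the largest change in colistin against control, for members called in other comparisons, and for enzymes of the same amino acid paired with these; up to 4 called genes are named of each companion list, and Aqp2, Chac1, Ddit3, Trib3 and further members were named after their values were seen. The members, lists and tests were chosen with earlier results of these data known. The alternatives were no filter, 1 FPKM in every library, pseudocounts of 0.1 and 1, only the groups compared, median-ratio scaling, no trend, a replicate block and each library left out. Some genes of the companion lists are not reported here. The replicate numbers did not pair the samples. Names and coordinates are from RefSeq on GRCm38.p6. Plots were made in Python 3.11.15 using matplotlib 3.10.9.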

Additional observations from a re-analysis of the deposited data

How the results depend on the processing

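The members called in colistin against control, 16 in all, numbered 10 when only the groups compared were fitted (4 cytosolic rises, 1 mitochondrial rise and 5 mitochondrial falls) and 10 to 17 when each library was left out, the lowest without colistin replicate 3 or control replicate 2. In colistin + 7-HC against 7-HC leaving out libraries gave 13 to 15 members called, in colistin + 7-HC against control 9 to 17, and in colistin + 7-HC against colistin and in 7-HC against control 0 to 1 each, the single calls (Ears2 and Aars) both without colistin replicate 2. The difference between the cytosolic and mitochondrial medians kept its size in every setting run in both colistin comparisons, 0.48 to 0.57 in colistin against control and 0.46 to 0.59 in colistin + 7-HC against 7-HC over the libraries left out. With a replicate block 13 members were called in colistin against control (Mars, Qars and Lars2 were lost) and 14 in colistin + 7-HC against 7-HC (Wars was lost). The deviations of same-numbered libraries from their group means correlated weakly, from -0.187 to 0.107. The correlation was over 0.1 in 2 of 18 pairs. Median-ratio scaling gave 10 cytosolic rises, 1 mitochondrial rise and 6 mitochondrial falls in colistin against control. It also turned the log2 fold changes of Aars to 0.07 and of Farsa to 0.03 there. The same scaling raised the share of all tested genes that rose in this comparison and lowered the share that fell. The extra cytosolic rises are thus not particular to the synthetases. For the other settings the counts of members are given without the shares of all genes. Leaving out libraries turned the sign of further members that were not called. In colistin against control the range was -0.09 to 0.14 for Aars and -0.10 to 0.03 for Farsa, and in colistin + 7-HC against 7-HC -0.11 to 0.08 for Cars2 and -0.01 to 0.18 for Farsa. In colistin + 7-HC against colistin it was -0.03 to 0.17 for Farsa, -0.14 to 0.01 for Farsb, -0.05 to 0.25 for Gars, -0.27 to 0.14 for Lars, -0.41 to 0.09 for Nars, -0.00 to 0.29 for Nars2, -0.25 to 0.16 for Pars2, -0.46 to 0.00 for Wars and -0.04 to 0.25 for Yars. Apart from the dropped libraries and smaller groups themselves, the cause was not tested. Without reads per library the precision of the low mitochondrial values cannot be given.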
